A study of Homo sapiens with 6 samples.

Results

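Of the protein-coding genes of human mitochondrial DNA, 6 do not belong to respiratory complex I. MT-CO1, MT-CO2 and MT-CO3 encode the catalytic core subunits of cytochrome c oxidase. MT-ATP6 and MT-ATP8 encode 2 of the membrane subunits of ATP synthase, and MT-CYB encodes the cytochrome b of complex III. Each of the 6 is counted below as an mRNA, although MT-ATP6 and MT-ATP8 share a single mRNA. The 6 were taken by transcript ID, 6 rows of the 203028 in each table. The rule itself used no measured value, but earlier results of these data were known when the members were chosen. Each length in the tables equalled that of the named gene in RefSeq (assembly GRCh38.p14), as did the lengths of the 7 complex I mRNAs and 2 rRNAs used for reference.

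HEK293, an established human embryonic kidney line, received lentiviral shRNAs, and all cells were puromycin-selected. The control group (3 libraries) carried scrambled shRNA and the other group (3 libraries) carried shRNA against PRPF39, a U1 snRNP-associated splicing factor. The contrast asks how the depletion of PRPF39 alters the transcriptome, and polyadenylated RNA was sequenced. The labels do not say whether replicates were separate transductions, so the p-values reflect library-to-library spread, possibly technical in part. Library totals ran from 113747941 to 246491084 estimated reads, and the 6 rows held 118036 to 2309395 reads each. The level of PRPF39 was not analysed here, because no table used here pairs transcript rows with nuclear genes, so neither the knockdown nor the cell line was checked by its genes.

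Mitochondrial DNA is transcribed into long polycistronic RNAs. Excision of the tRNAs that lie between the genes releases most mRNAs, and a mitochondrial poly(A) polymerase adds their tails. Because the genes on the main coding strand share a promoter region, steady-state differences between their mRNAs are commonly ascribed in textbooks to differences in RNA stability, which the LRPPRC and SLIRP proteins among others affect. These genes have no introns and are not substrates of the nuclear spliceosome.

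The annotated positions of the 6 genes were as follows. MT-CO1 (ENST00000361624) spans bases 5904 to 7445 of the mitochondrial chromosome, and its end adjoins a serine tRNA gene with a gap of 0 bases. MT-CO2 (ENST00000361739) spans 7586 to 8269 and begins directly after an aspartate tRNA gene. MT-ATP8 (ENST00000361851), at 8366 to 8572, and MT-ATP6 (ENST00000361899), at 8527 to 9207, share 46 bases and lie on 1 mRNA of both reading frames. MT-CO3 (ENST00000362079), at 9207 to 9990, shares 1 base with MT-ATP6, with no tRNA gene between them. MT-CYB (ENST00000361789) lies apart from the others at 14747 to 15887, between glutamate and threonine tRNA genes. The annotated lengths of MT-CO3 (784 bases) and MT-CYB (1141 bases) leave 1 base after the last whole codon, and polyadenylation is known to complete such stop codons.

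These were among the most abundant rows of the tables. By mean TPM (transcripts per 1000000, scaled by each library's effective transcript lengths), MT-ATP8, MT-CO2, MT-ATP6, MT-CO1 and MT-CO3 ranked 1, 2, 3, 4 and 5 of all rows, and MT-CYB ranked 27. By mean estimated reads MT-CO1 ranked 1, MT-CO2 5, MT-CO3 9, MT-ATP6 10, MT-CYB 17 and MT-ATP8 64. Together the 6 held 7.21%, 5.64% and 5.50% of TPM in control replicates 1, 2 and 3, and 8.29%, 6.65% and 7.92% in PRPF39 shRNA replicates 1, 2 and 3. The means were 6.11% ± 0.95 and 7.62% ± 0.86 (n = 3 each, SD), and the groups overlapped (exact two-sided permutation p = 0.2, where 0.1 is the smallest that 3 libraries against 3 allow). Of all estimated reads the shares were 2.48% ± 0.20 and 2.79% ± 0.27 (n = 3 each, SD, control first; p = 0.2 by exact permutation). MT-ATP8 and MT-ATP6 lie on 1 mRNA, which thus enters these shares as 2 rows. MT-ATP8 alone held a mean of 1.87% of TPM in control and 2.44% in PRPF39 shRNA libraries.

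The 6 mRNAs differed in how their PRPF39 shRNA levels compared with control. MT-CYB and MT-CO2 stood highest relative to control in PRPF39 shRNA libraries, at 1.94 and 1.40 times the control mean in TPM. MT-ATP6 and MT-ATP8 stood at 1.30 and 1.31 times and MT-CO3 at 1.17 times, while MT-CO1 stood lower, at 0.852 times. In bulk RNA, fewer cells with an mRNA and less of it per cell cannot be told apart. None of the 6 passed the quasi-likelihood test of edgeR, whose threshold was a Benjamini-Hochberg adjusted p under 0.05 across 97571 transcripts, and which called 0.904% of transcripts. At an unadjusted p under 0.05 there were 5 of the 6, against 16.1% of all transcripts. These 5, and the median that follows, take in MT-ATP6 and MT-ATP8 as separate rows although they share an mRNA. The median log2 change of the 6 was 0.40, beside -0.02 over all transcripts tested.

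**Figure D1:**
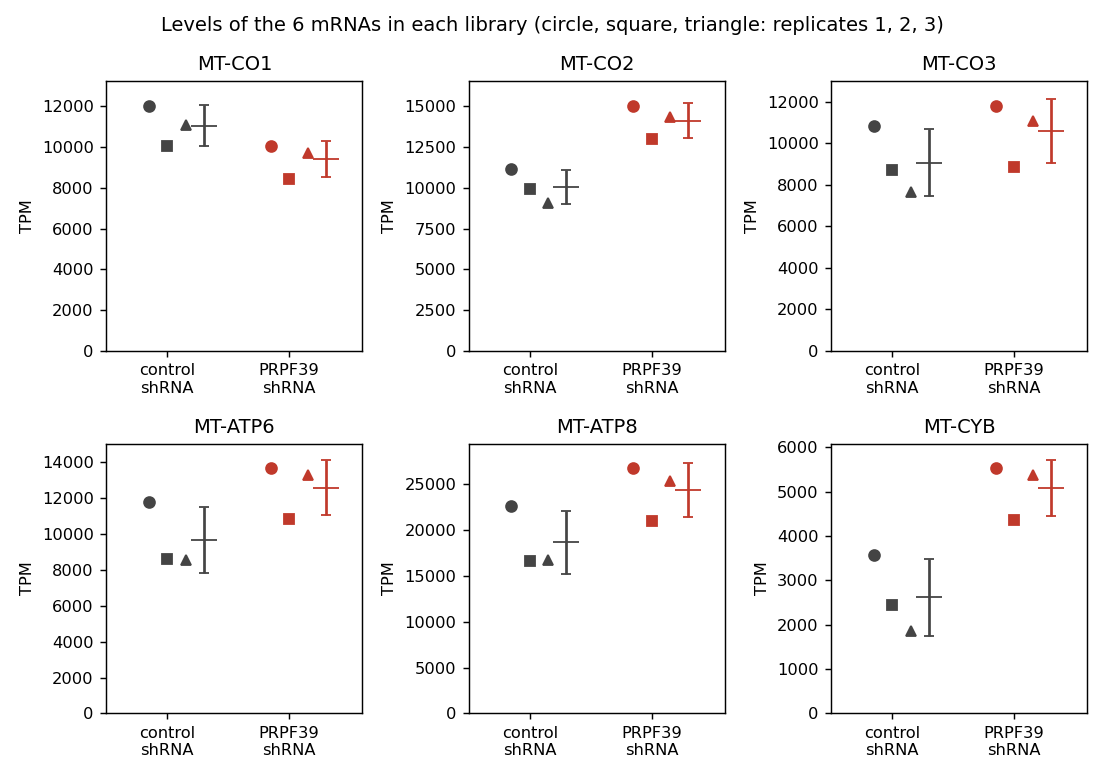
TPM of each of the 6 mRNAs in the 3 control and 3 PRPF39 shRNA libraries, on linear axes from 0; symbols mark replicates and bars the mean ± SD. MT-CO2 and MT-CYB have no overlap between groups, and MT-CO1 alone has a lower mean with PRPF39 shRNA (9413 against 11052 TPM).

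MT-CYB encodes the subunit that carries the haems b of complex III, which passes electrons from ubiquinol to cytochrome c. Its TPM was 3563, 2454 and 1851 in control replicates 1, 2 and 3 and 5526, 4367 and 5375 in PRPF39 shRNA replicates 1, 2 and 3. Every PRPF39 shRNA library lay above every control library, and the controls were spread widely, with a coefficient of variation of 33.1% against 12.4%. The log2 change was 0.93 ± 0.20 (SE; adjusted p = 0.0962, edgeR). In a test restricted to transcripts averaging 5 CPM or more (TMM-scaled counts per 1000000 reads), it passed, with a log2 change of 0.88 (adjusted p = 0.0195, edgeR). Over 23 alternatives its adjusted p ran from 0.000145 to 0.285.

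Among the cytochrome c oxidase mRNAs, MT-CO2 and MT-CO1 stood on opposite sides of control. MT-CO2 encodes the subunit with the copper A centre, which accepts electrons from cytochrome c. Its TPM was 11183, 9900 and 9079 in control replicates 1, 2 and 3 and 15049, 12977 and 14347 in PRPF39 shRNA replicates 1, 2 and 3. The groups did not overlap, and the spread was alike in both, at 10054 ± 1060 and 14125 ± 1054 TPM (SD, n = 3 each). The log2 change of 0.46 ± 0.09 (SE) had an adjusted p of 0.0787 (edgeR). In the restricted test it passed as well, with a log2 change of 0.41 (adjusted p = 0.0281, edgeR), and over 23 alternatives the adjusted p ran from 0.000121 to 0.254.

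MT-CO1 encodes the subunit that holds haem a and the haem a3 and copper B site where oxygen is reduced. Its TPM was 12044, 10034 and 11077 in control replicates 1, 2 and 3 and 10076, 8428 and 9733 in PRPF39 shRNA replicates 1, 2 and 3. On this scale the lowest control fell just under the highest PRPF39 shRNA library. In CPM the controls were close together, at 10851, 11131 and 11122, and all exceeded the PRPF39 shRNA libraries, at 9743, 8436 and 9164. The log2 change was -0.28 ± 0.07 (SE; adjusted p = 0.142, edgeR). MT-CO3, a core subunit without a metal centre, overlapped on both scales. Its TPM was 10842, 8736 and 7632 in control and 11824, 8858 and 11069 in PRPF39 shRNA replicates 1, 2 and 3, which gave a log2 change of 0.20 ± 0.13 (SE) with adjusted p = 0.535 in edgeR.

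The 2 reading frames of the ATP synthase mRNA differed in TPM but had like ratios to control in TPM, 1.30 for MT-ATP6 and 1.31 for MT-ATP8. MT-ATP6 encodes subunit a, which forms the proton path beside the c ring, and MT-ATP8 a small subunit of the stator. MT-ATP6 stood at 11815, 8632 and 8586 TPM in control and at 13678, 10829 and 13299 TPM in PRPF39 shRNA replicates 1, 2 and 3. MT-ATP8 stood at 22612, 16602 and 16766 TPM in control and at 26715, 21008 and 25357 TPM in PRPF39 shRNA replicates 1, 2 and 3. For both, control replicate 1 was the high control and exceeded PRPF39 shRNA replicate 2, so the groups overlapped in TPM. In CPM, which is TMM-scaled, they did not overlap. The highest control was at 3666 and the lowest PRPF39 shRNA library at 3734 for MT-ATP6. For MT-ATP8 these were at 1010 and 1053. Scaled by library totals without TMM, reads per kilobase of annotated length overlapped for both. The highest control was then at 5610 and the lowest PRPF39 shRNA library at 5405 for MT-ATP6. For MT-ATP8 these were at 5086 and 5013. The log2 change was 0.35 ± 0.11 for MT-ATP6 and 0.45 ± 0.13 for MT-ATP8 (SE; adjusted p = 0.194 and 0.162, edgeR).

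In CPM, therefore, 4 members lay wholly higher with PRPF39 shRNA, 1 lay wholly lower and 1 overlapped. MT-ATP6 and MT-ATP8, which lie on 1 mRNA, are both among these 4, and among the 4 that DESeq2 called higher (below). Of all transcripts tested, 12.6% lay wholly higher and 12.8% wholly lower. Among 62 non-mitochondrial transcripts averaging 1000 CPM or more, a level that the means of all 6 members exceed, the shares were 6.45% and 24.2%, and their median log2 change was -0.23. In TPM, 2 members lay wholly higher and 0 wholly lower, against 11.9% and 11.3% of all transcripts tested. In reads per kilobase of annotated length, scaled by library totals without TMM, 2 members lay wholly higher, 1 wholly lower and 3 overlapped. No background share was computed on that scale. With DESeq2, 4 members were called higher and 1 lower. Of the 67119 transcripts to which it gave an adjusted p, it called 7.27% higher and 6.14% lower. With edgeR restricted to 5 CPM or more, which called 8.55% higher and 9.13% lower, the members called were 2 higher and 0 lower. With each library left out in turn from that last test, MT-CYB passed in 3 of 6 fits, those without control replicate 1 or 3 or PRPF39 shRNA replicate 2. Its adjusted p was highest at 0.0717 over the 6 (edgeR). MT-CO2 passed in 1, without control replicate 1, where 4250 of 20216 transcripts were called against 875 to 1971 in the other fits, and its adjusted p reached 0.112 in the others (edgeR).

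Ratios between these mRNAs within a library do not depend on how libraries are scaled to each other. Relative to each of the other 5 members, MT-CO1 was lower in all PRPF39 shRNA libraries than in any control library. These 5 ratios share MT-CO1 and are not independent. The MT-CO1 to MT-CO2 ratio of TPM was 1.08, 1.01 and 1.22 in control replicates 1, 2 and 3 and 0.67, 0.65 and 0.68 in PRPF39 shRNA replicates 1, 2 and 3. MT-CO1 thus exceeded MT-CO2 in every control library and was below it in every PRPF39 shRNA library, a log2 difference of -0.72 between groups (exact permutation p = 0.1, 0.125 adjusted over 15 pairs). The MT-CO1 to MT-CYB ratio was 3.38, 4.09 and 5.98 in control and 1.82, 1.93 and 1.81 in PRPF39 shRNA libraries, a log2 difference of -1.23 (exact permutation p = 0.1, adjusted 0.125). The 3 PRPF39 shRNA libraries gave nearly 1 value for this ratio, while the controls were spread.

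**Figure D2:**
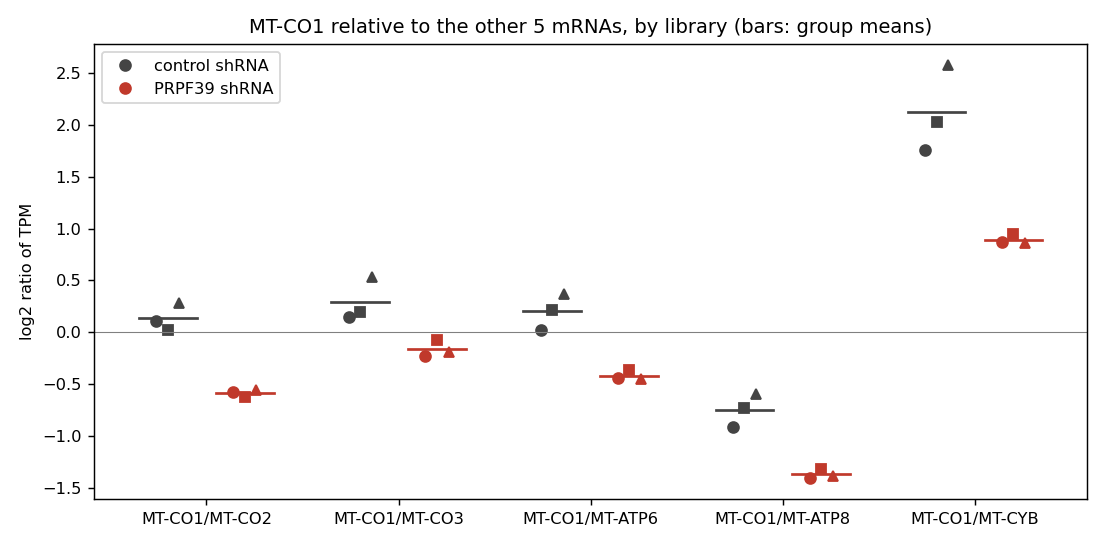
Log2 ratio of MT-CO1 TPM to the TPM of each of the other 5 mRNAs, by library, with bars at group means. In all 5 ratios the 3 PRPF39 shRNA libraries lie below the 3 controls.

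The log2 differences for MT-CO1 were -0.46 against MT-CO3, -0.62 against MT-ATP6 and -0.62 against MT-ATP8, with no overlap between groups. Within cytochrome c oxidase, MT-CO2 to MT-CO3 was 1.03, 1.13 and 1.19 in control replicates 1, 2 and 3 and 1.27, 1.46 and 1.30 in PRPF39 shRNA replicates 1, 2 and 3 (log2 difference 0.27). Every PRPF39 shRNA library lay above every control in this ratio. MT-CO3 to MT-ATP6, adjoining genes with no tRNA between them, had ratios of 0.92, 1.01 and 0.89 in control and 0.86, 0.82 and 0.83 in PRPF39 shRNA replicates 1, 2 and 3 (log2 difference -0.16). Of the 15 pairs, 12 had no overlap between groups in TPM, each with the smallest exact permutation p of 0.1 (adjusted 0.125), so no pair could pass at 0.05. The pairs share members and are not independent. How often ratios between other transcripts had no overlap was not computed, so the count of 12 has no background share beside it. The 3 that overlapped were MT-CO2 with MT-ATP6, MT-CO2 with MT-ATP8, and MT-ATP6 with MT-ATP8.

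The ratio of MT-ATP8 to MT-ATP6, the 2 frames of 1 mRNA, had the smallest difference between groups of the 15 in TPM, though not in reads. In TPM it was 1.91, 1.92 and 1.95 in control replicates 1, 2 and 3 and 1.95, 1.94 and 1.91 in PRPF39 shRNA replicates 1, 2 and 3. The group difference of MT-ATP6 to MT-ATP8 was -0.0025 on the log2 scale (exact permutation p = 0.9). Per base of annotated length the ratio of MT-ATP8 to MT-ATP6 reads was 0.91, 0.90 and 0.90 in control and 0.94, 0.93 and 1.01 in PRPF39 shRNA replicates 1, 2 and 3. The scales differ because the quantifier's effective length for MT-ATP8 was 57 to 68 bases, 27.5% to 32.9% of its 207 bases, while that of MT-ATP6 was 58.6% to 61.9% of its annotated length.

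In reads, the MT-ATP6 to MT-ATP8 ratio did not overlap between groups (log2 difference -0.09, exact permutation p = 0.1, the smallest that 3 against 3 allows, and 0.115 adjusted over the 15 pairs), and the smallest difference was that of MT-CO2 to MT-ATP8 (0.01). MT-ATP8 reads per MT-ATP6 read were 0.276, 0.274 and 0.273 in control and 0.286, 0.282 and 0.308 in PRPF39 shRNA replicates 1, 2 and 3. The highest, in PRPF39 shRNA replicate 3, came with an MT-ATP8 effective length of 68 bases, against 57 to 59 in the other libraries. With effective lengths as offsets, the log2 change of MT-ATP8 was 0.36 and that of MT-ATP6 0.36 (adjusted p = 0.163 and 0.175, edgeR).

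**Figure D3:**
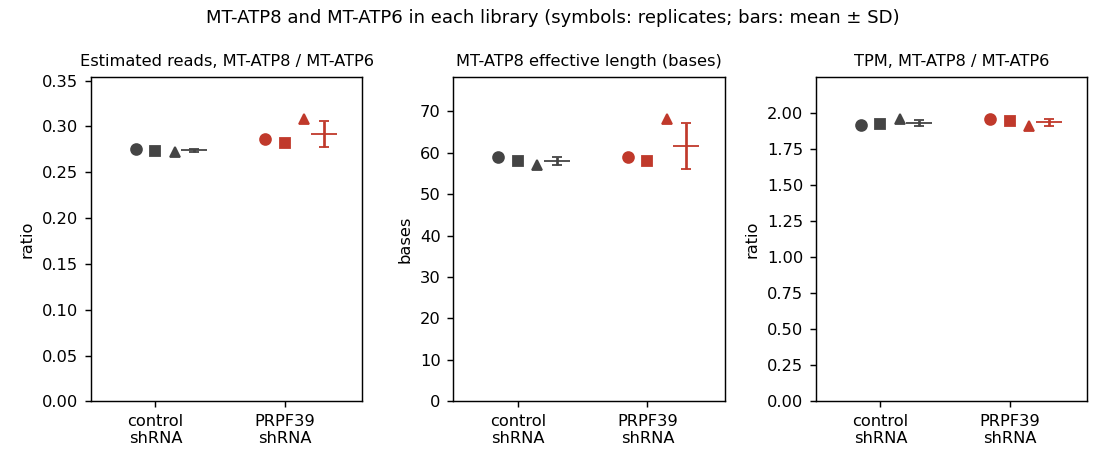
Estimated reads of MT-ATP8 per read of MT-ATP6, the effective length of MT-ATP8 in bases, and the ratio of their TPM, by library (symbols are replicates, bars mean ± SD). PRPF39 shRNA replicate 3 stands out in reads and effective length, while the TPM ratio stays between 1.91 and 1.95.

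The order of the 6 mRNAs likewise depended on the length used. In control TPM the order was MT-ATP8, MT-CO1, MT-CO2, MT-ATP6, MT-CO3 and MT-CYB, and MT-CO1, MT-CO2, MT-ATP6 and MT-CO3 overlapped from neighbour to neighbour. In reads per kilobase of annotated length and per 1000000 reads of the library, MT-CO1 came first, at 7133 ± 292, and MT-ATP8 next to last, at 4384 ± 611 (SD, n = 3 each). In PRPF39 shRNA libraries MT-CO2 came first on that scale, at 7993 ± 517, clear of MT-ATP6, MT-ATP8, MT-CO1 and MT-CO3, which overlapped in turn. MT-CYB was last in both groups and on both scales.

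Within the TPM of the 13 mitochondrial mRNAs, the members together held 70.0% ± 2.05 in control libraries and 69.8% ± 1.40 with PRPF39 shRNA (n = 3 each, SD; p = 1.0 by exact permutation). The share of MT-CO1 was 12.0%, 12.5% and 13.7% in control replicates 1, 2 and 3 and 8.68%, 8.70% and 8.55% in PRPF39 shRNA replicates 1, 2 and 3, a difference of -4.09 percentage points. That of MT-CYB was 3.56%, 3.06% and 2.28% in control and 4.76%, 4.51% and 4.72% with PRPF39 shRNA. That of MT-CO2 was 11.2%, 12.3% and 11.2% in control and 12.96%, 13.39% and 12.61% with PRPF39 shRNA. These 3 had no overlap between groups (exact permutation p = 0.1 each, 0.2 adjusted over the 6), and the other 3 overlapped. Of the 7 complex I mRNAs, 2 lay wholly higher in this share and 0 wholly lower. Shares of the 13 add to a fixed total, so a lower share of MT-CO1 raises those of the others. No background share from other transcripts was computed for these counts.

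The complex I mRNAs, transcribed from the same DNA, gave a reference for the members. Among them, the annotated positions of MT-ND4L and MT-ND4 overlap, so these are not fully separate rows. Of the 7, 0 were called by edgeR across all transcripts, of which 0.904% were called. An unadjusted p under 0.05 was found for 4 of the 7, against 16.1% of all transcripts. The median log2 change of the 7 was 0.22. At 5 CPM or more, edgeR called 2 of the 7 higher, MT-ND2 and MT-ND3, and 0 lower, the same numbers as for the members. That test called 8.55% of transcripts higher and 9.13% lower. DESeq2, with 7.27% higher and 6.14% lower among 67119 transcripts, called 2 of the 7 higher and 0 lower, against 4 and 1 of the members. The nearest gene before MT-CO1 that encodes a protein, MT-ND2, had 0.76 ± 0.13 (SE) as its log2 change, with adjusted p = 0.0615 in edgeR, against -0.28 for MT-CO1 itself. In CPM 4 of the 7 lay wholly higher with PRPF39 shRNA and 0 wholly lower, against 12.6% and 12.8% of all transcripts tested. In reads per kilobase of annotated length, scaled by library totals without TMM, 3 of the 7 lay wholly higher and 0 wholly lower. In the fit over all transcripts, MT-CO1 alone of the 13 mRNAs had a log2 change below 0. MT-ND6, at 0.02 in that fit, lay on either side of 0 in the alternatives, from -0.29 to 0.49.

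**Figure D4:**
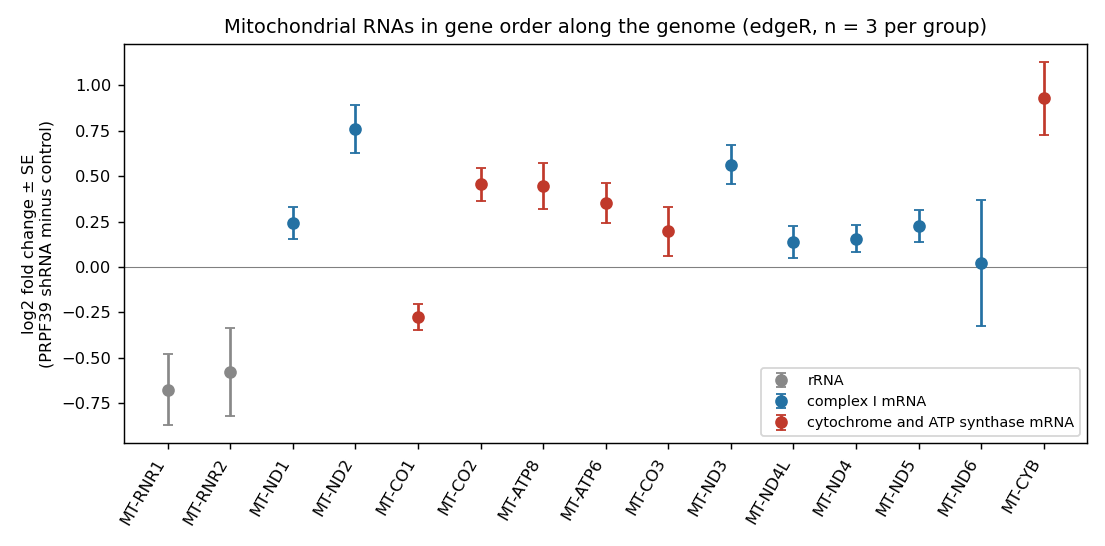
Log2 fold change with SE (edgeR, PRPF39 shRNA minus control) for the 13 mitochondrial mRNAs and 2 rRNAs, in gene order. MT-CO1 (-0.28) stands below 0 between MT-ND2 (0.76) and MT-CO2 (0.46), and MT-CYB (0.93) is the highest.

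A further row of the same length as MT-ATP6, ENST00000514057, was singled out after its values were seen. It held 13.4%, 13.1% and 13.2% of the reads of both rows in control replicates 1, 2 and 3 and 13.2%, 13.1% and 13.3% in PRPF39 shRNA replicates 1, 2 and 3. RefSeq (GRCh38.p14) lists 4 nuclear pseudogene copies of the gene with that length, but 154 rows of the tables have it too, and nothing used here pairs this row with a copy. The groups overlapped in this share (exact permutation p = 0.8), and adding the row to MT-ATP6 left its log2 change at 0.35 (adjusted p = 0.198, edgeR). Whether the rows share reads was not tested.

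The members' shared pattern, their mean log2 CPM over the 6 libraries, was highest in PRPF39 shRNA replicate 1 and lowest in control replicate 3. MT-ATP6 followed it most closely (Pearson's r = 0.99) and MT-CO1 ran against it (r = -0.62). Of 1615 non-mitochondrial transcripts averaging 100 CPM or more, the most alike were ENST00000283632 (6301 bases, r = 0.989) and ENST00000398637 (8066 bases, r = 0.988). The complex I mRNAs most alike were MT-ND2 (r = 0.944), MT-ND1 (r = 0.940) and MT-ND3 (r = 0.935). Set among the 1615 non-mitochondrial transcripts, they would rank 59, 70 and 83. MT-ND4L (r = 0.46), MT-ND4 (r = 0.44) and MT-ND5 (r = 0.34) were less alike. These correlations describe 6 libraries that fall into 2 groups, and members enter their own mean.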

How the data were processed

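Polyadenylated RNA was measured in 3 control shRNA and 3 PRPF39 shRNA libraries of HEK293 cells, grouped and numbered by their titles. The authors deposited 1 table per library with estimated counts, which are reads assigned to each transcript by the quantifier and not scaled for depth, and TPM, which uses each library's own effective lengths, per the file headers. Named per the submitters' processing notes were Salmon 0.11.1, STAR 2.7.9a, cutadapt 2.1 and DESeq2 1.32.0 with build hg38. Options and annotation release are not given in the sources used here.

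Estimated counts were rounded and tested with edgeR 4.0.16 in R 4.3.3 (filterByExpr with a minimum count of 10, TMM, quasi-likelihood test of the group term in all 6 libraries, Benjamini-Hochberg adjustment over 97571 transcripts, threshold 0.05). The tested rows held 99.84% to 99.88% of the counts. SEs are the log2 change divided by the square root of F. The procedure was tested on simulated data. Ratios of TPM and shares were compared by exact two-sided permutation over libraries. DESeq2 1.42.0 and limma 3.58.1 served as alternatives. The pseudocount for log2 TPM was 1. No library duplicated another (chi-square per degree of freedom at least 32). The members, the complex I and rRNA list and the tests were chosen with earlier results of these data known. Named are all 6 members and, by a rule of likeness, the first 2 of 3 transcripts, since no gene names go with them. Same-numbered libraries deviated from their group means with correlations of 0.16, 0.031 and 4.2e-05 and were not taken as pairs. Nuclear partner genes were not analysed here.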

Additional observations from a re-analysis of the deposited data

How the results depend on the processing

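The log2 changes of the 6 mRNAs kept their sign in all 23 alternatives, of which the 6 that dropped a library at 5 CPM or more, and the sum of MT-ATP6 with its equal-length row, were chosen after the data were seen. With 0 members called in the main test, DESeq2 called 4 higher and 1 lower: MT-CO1 -0.26, MT-CO2 0.47, MT-ATP6 0.37, MT-ATP8 0.46 and MT-CYB 0.94 (log2; adjusted p = 0.0165, 0.000121, 0.027, 0.0106 and 0.000145). A mean of at least 5 CPM called 2, MT-CO2 at 0.41 and MT-CYB at 0.88, limma on log2(TPM + 1) called 2, at 0.49 and 1.0004, among 1957 of 45635 transcripts, and limma-voom called 1, MT-CO2 at 0.47, among 876 of 97571. The 5 CPM test adjusts over 20216 transcripts, DESeq2 over 67119 and limma on log2(TPM + 1) over 45635, in place of 97571. The cause of the other differences was not tested. Leaving out each library gave 0 members called, but only 0 to 22 of all transcripts were called in those fits, so this says nothing about the members. The log2 changes then ran from -0.33 to -0.22 for MT-CO1, 0.39 to 0.52 for MT-CO2, 0.10 to 0.30 for MT-CO3, 0.29 to 0.44 for MT-ATP6, 0.38 to 0.55 for MT-ATP8 and 0.74 to 1.119 for MT-CYB. At 5 CPM they ran from -0.37 to -0.27, 0.37 to 0.45, 0.07 to 0.25, 0.26 to 0.39, 0.31 to 0.50 and 0.71 to 1.08, with 0 to 4 members called higher and 0 to 1 lower (4 and 1 without control replicate 1, where 4250 of 20216 transcripts were called against 875 to 1971 in the other fits and MT-CO1 was at -0.34; 1 and 0 without PRPF39 shRNA replicate 2, where MT-CYB was at 0.97). With the replicate block the log2 changes of MT-CO2 and MT-CYB were 0.46 and 0.96 and no member was called (adjusted p from 0.208 to 0.564, edgeR). The number of all transcripts called fell from 882 to 0 under that block. Scaling that ignored the mitochondrial rows left every member's log2 change as it was to 2 decimals. Of the ratio differences, that of MT-ATP6 to MT-ATP8 changed sign, between -0.012 and 0.0049, in 4 of the 6 leave-one-out comparisons. The planned sum with nuclear copies was not run, since no table ties rows to them.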

Other observations

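The mitochondrial rRNAs lie upstream of the 6 members on the same strand. They had values on the other side of control from 12 of the 13 mRNAs in the fit over all transcripts. Of these 12, MT-ND6 was near 0, with a log2 change of 0.02 ± 0.35 (SE), and changed sign in some alternatives. MT-RNR1, the small-subunit rRNA, stood at 2377, 2808 and 2374 TPM in control replicates 1, 2 and 3 and at 1264, 1886 and 1701 TPM in PRPF39 shRNA replicates 1, 2 and 3, with no overlap. Its log2 change was -0.68 ± 0.20 (SE; adjusted p = 0.171, edgeR over all transcripts). MT-RNR2, the large-subunit rRNA, overlapped between groups, and its log2 change was -0.58 ± 0.24 (SE; adjusted p = 0.31, edgeR). Among transcripts of at least 5 CPM, MT-RNR1 was called lower (log2 change -0.72, adjusted p = 0.0342, edgeR). Poly(A) selection takes up rRNA only in part, and whether that part was equal in the libraries was not tested.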
